A study of Rattus norvegicus with 12 samples.

Results

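The AP-1 and early growth response factors were the FOS genes Fos, Fosb, Fosl1 and Fosl2, the JUN genes Jun, Junb and Jund, and the single genes Atf3, Egr1 and Ets1. Each probe set whose only gene symbol in the platform annotation was one of these 10 genes was taken, which gave 16 of the 31042 probe sets tested on the array, and Fos, Fosl2, Jun and Jund had more than 1. F111 is a fibroblast line of the Fischer rat that the paper calls normal, although it found the line to be aneuploid. The A16 group was F111 cells kept for 16 h on plastic, and the Tumor group was cells cultured from subcutaneous tumours that had formed in nude mice about 3 months after injection of F111 cells held in suspension. Each group had 3 Affymetrix arrays, biological replicate 1, biological replicate 2 and technical replicate 2, and the last was averaged with replicate 1 so that n = 2 replicates per group. No label ties the replicates to separate cultures or animals, and the p-values therefore refer to the spread among these samples, which may be technical. The serum was 10% in both groups by the labels but higher for the tumour cells by the published methods, and cells of the mouse host could remain in such cultures. The paper also found a chromosome translocation in a minority of A16 cells and in all tumour cells examined. Serum, days in culture, karyotype and passage through a mouse cannot be told apart from the group.

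AP-1 is a pair of bZIP proteins, a JUN protein with another JUN protein, a FOS protein or a relative such as ATF3, which binds short DNA elements in promoters and enhancers. Serum, growth factors, adhesion and stress raise the transcription of most of its genes within minutes through the MAP kinases, and they are called immediate early genes for that reason. EGR1 is a zinc finger factor induced in the same way, and ETS1 is an ETS family factor that often binds beside AP-1. In fibroblasts the stromelysins, the matrix-degrading proteases encoded by Mmp3 and Mmp10, are textbook targets of AP-1 with ETS factors.

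The promoter sequences of the stromelysins are given first because the factors are set beside these 2 genes. They are from RefSeq (assembly GRCr8), run from 250 bases before to 50 after the annotated start, and were searched on both strands. Positions count from 0 at the start. Capitals mark the AP-1 element TGANTCA. They also mark the ETS core AGGAA, which reads as TTCCT when it lies on the other strand.
Mmp3 promoter, chr8:12925031-12925330, plus strand: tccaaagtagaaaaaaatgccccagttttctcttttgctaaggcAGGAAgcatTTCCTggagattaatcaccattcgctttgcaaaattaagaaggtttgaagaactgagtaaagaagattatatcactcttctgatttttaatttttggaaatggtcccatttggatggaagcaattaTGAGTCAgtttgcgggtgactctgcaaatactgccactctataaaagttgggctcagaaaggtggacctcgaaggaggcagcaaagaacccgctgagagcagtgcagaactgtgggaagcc
Mmp10 promoter, chr8:12974457-12974756, plus strand: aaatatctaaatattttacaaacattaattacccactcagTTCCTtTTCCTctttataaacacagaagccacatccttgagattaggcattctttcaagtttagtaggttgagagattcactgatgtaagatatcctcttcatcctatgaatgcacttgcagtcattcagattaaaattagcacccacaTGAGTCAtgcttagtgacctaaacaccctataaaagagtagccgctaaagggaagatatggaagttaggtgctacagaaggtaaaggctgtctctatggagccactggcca
Both held the same AP-1 element, TGAGTCA, at -71 to -65 in Mmp3 and at -61 to -55 in Mmp10, and both held 2 ETS cores further upstream. An AP-1 element was present in 7.33% of the 33469 promoters of the same length, an ETS core in 67.3%, 2 or more ETS cores in 33.4%, and both kinds of element together in 4.99%. A match is a run of letters and not a measured binding site.

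Among the members with a promoter entry, Fosl2 is shown because its gene was called higher and its promoter held 2 copies of the EGR element GCGNGGGCG, at -249 to -241 and 8 to 16, which capitals mark.
Fosl2 promoter, chr6:30039220-30039519, minus strand: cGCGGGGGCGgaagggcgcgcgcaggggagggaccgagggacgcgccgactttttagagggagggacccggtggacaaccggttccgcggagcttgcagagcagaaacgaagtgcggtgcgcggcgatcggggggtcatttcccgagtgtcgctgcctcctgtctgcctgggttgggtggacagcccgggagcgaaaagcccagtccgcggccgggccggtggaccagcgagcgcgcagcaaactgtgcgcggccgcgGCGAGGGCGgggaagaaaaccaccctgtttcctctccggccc
It also held 1 ETS core, at 36 to 40, left in lower case. At least 1 EGR element was present in 4.98% of all promoters, and 2 or more in 0.705%. The Jund promoter held 3 EGR elements and 1 CRE (TGACGTCA, the element of CREB and ATF proteins, in 1.83% of promoters). The Egr1 promoter held 2 CArG boxes, the element of serum response factor (1.64% of promoters), and 1 ETS core. The promoters of Fosb, Fosl1 and Junb each held 1 ETS core and none of the other elements searched. Fos, Jun, Atf3 and Ets1 had no promoter entry and were not searched. None of the member promoters that were searched held TGANTCA.

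**Figure D1:**
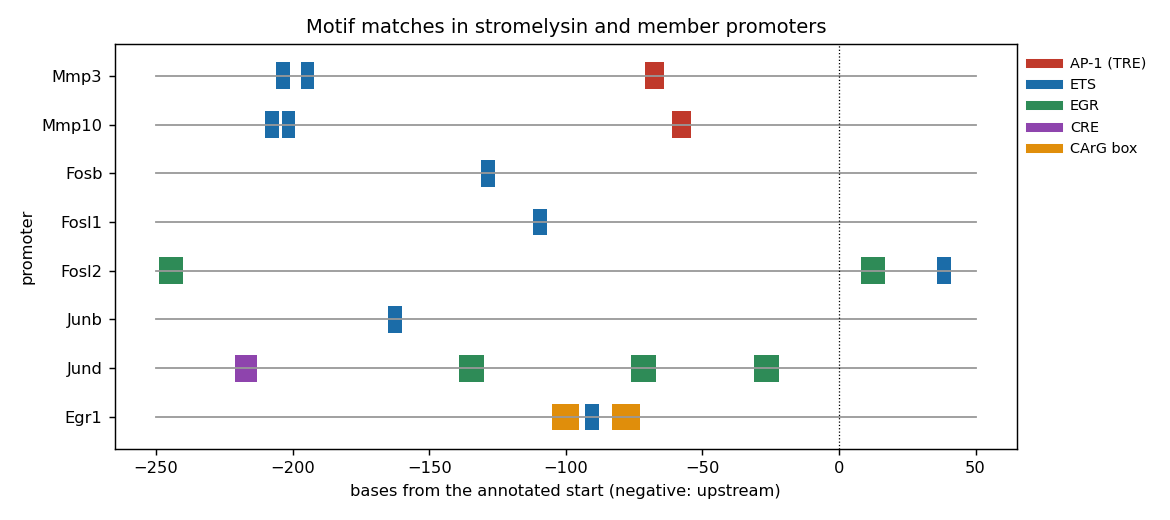
Motif matches in the RefSeq promoters of the 2 stromelysins and of 6 members, plotted by distance in bases from the annotated start. AP-1 elements (red) are seen in Mmp3 and Mmp10 and in none of the member promoters, EGR elements (green) in Fosl2 and Jund, and CArG boxes (orange) in Egr1.

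In Tumor cells, Fosb was 5.42-fold and one probe set of Fosl2 2.18-fold higher than in A16 cells, whereas Junb was 2.25-fold and one probe set of Jun 2.12-fold lower. A probe set was called when its limma p, adjusted by the Benjamini-Hochberg method over all 31042 probe sets, was under 0.05 and its fold was at least 2. Of the 16 member probe sets, 2 were called higher, 2 lower and 12 were not called. Over the whole array 5.51% of probe sets were called higher and 6.39% lower. Without regard to fold, 6 member probe sets had an adjusted p under 0.05, 4 of them higher and 2 lower, beside 31.8% of all probe sets. The 3 Tumor arrays lay wholly above the 3 A16 arrays in 7 member probe sets and wholly below in 5, and such a separation was seen in 52.6% of all probe sets. The median log2 difference was -0.08 over the member probe sets and 0.03 over all probe sets. When the brightest probe set stood for each gene, Fosb and Fosl2 were called higher, Junb lower and the other 7 were not called, beside 5.45% of all 14217 genes called higher and 5.44% lower. By gene the median log2 difference was 0.34 over the members and 0.03 over all genes, so its sign depends on how probe sets are counted. The counts are small and describe these members only.

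Values below are log2 of the RMA intensity on single arrays, given for replicate 1, replicate 2 and technical replicate 2 in that order, and differences are Tumor minus A16 on the same log2 scale with a standard error (SE). Levels of different probe sets depend on their probes and are not compared with each other.

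**Figure D2:**
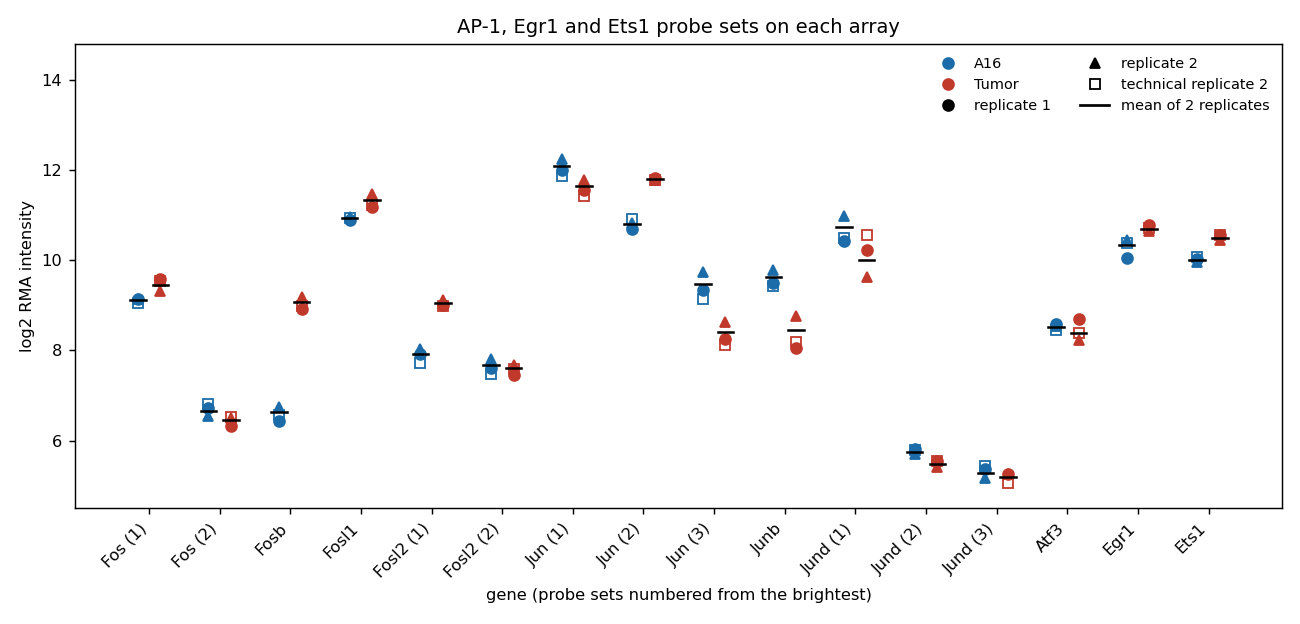
Log2 RMA intensity of each of the 16 probe sets on the 3 A16 arrays (blue) and the 3 Tumor arrays (red), with horizontal bars at the mean of the 2 replicates. The groups are farthest apart for Fosb, and the 3 probe sets of Jun move in different directions.

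Among the FOS genes, Fosb showed the largest difference of all members. Its product, FosB, is a JUN partner that is usually low in resting cells. Fosb (1373759_at) measured 6.43, 6.75 and 6.57 on the A16 arrays and 8.91, 9.18 and 8.98 on the Tumor arrays. All Tumor arrays lay above all A16 arrays, by a margin several times the spread within either group. The difference was 2.44 ± 0.14 (SE, n = 2 per group, 95% interval 2.1 to 2.78), with an adjusted p from limma of 8.44e-05. With PLIER, the other summary of the same arrays, the rise was 5.64-fold.

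Fosl2 encodes Fra-2, a FOS protein without the strong transactivation domain of c-Fos. Its brighter probe set (1383860_at) measured 7.93, 8.03 and 7.72 in A16 and 9.0, 9.11 and 8.98 in Tumor, again with no overlap. The difference was 1.13 ± 0.13 (SE, 95% interval 0.82 to 1.43, adjusted p from limma 0.00104). The second probe set (1387530_a_at) did not follow it. It measured 7.60, 7.81 and 7.48 in A16 and 7.45, 7.68 and 7.58 in Tumor, so that the groups overlapped, and the difference was -0.08 ± 0.14 (SE). The mean of both probe sets differed by 0.52, under the 2-fold minimum. The Fosl2 rise was therefore seen with 1 of its 2 probe sets.

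Fosl1 encodes Fra-1, a FOS protein often abundant in transformed and invasive cells. It measured 10.90, 10.95 and 10.93 in A16 and 11.18, 11.47 and 11.23 in Tumor. The Tumor arrays were all higher, but the difference of 0.41 ± 0.13 (SE, 95% interval 0.09 to 0.72) did not pass (adjusted p from limma 0.0567). Fos, which encodes c-Fos, had 2 probe sets of opposite sign. The brighter one (1375043_at) measured 9.13, 9.14 and 9.06 in A16 and 9.59, 9.32 and 9.55 in Tumor, a difference of 0.32 ± 0.13 (SE, 95% interval 0.02 to 0.63, adjusted p from limma 0.106). The dimmer one (1371283_at) measured 6.72, 6.55 and 6.80 in A16 and 6.32, 6.50 and 6.52 in Tumor, a difference of -0.20 ± 0.12 (SE, adjusted p from limma 0.295). Neither probe set of Fos was called, and the interval of the brighter one holds no change of 2-fold.

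Among the JUN genes, Junb and one probe set of Jun were called lower. No JUN probe set was called higher with RMA when technical replicate 2 was averaged with replicate 1. Junb encodes JunB, a weaker activator than c-Jun that can oppose it at some promoters. Junb (1387788_at) measured 9.49, 9.78 and 9.43 in A16 and 8.06, 8.77 and 8.19 in Tumor. Every Tumor array lay below every A16 array, and Tumor replicate 2 was the nearest to A16. The difference was -1.17 ± 0.23 (SE, 95% interval -1.72 to -0.62, adjusted p from limma 0.00933), and PLIER gave a 2.55-fold fall. Without Tumor replicate 1 the difference was -0.85, which is under the 2-fold minimum.

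Jun encodes c-Jun, the main partner of the FOS proteins, and its 3 probe sets disagreed. The brightest (1389528_s_at) measured 12.00, 12.25 and 11.87 in A16 and 11.56, 11.78 and 11.43 in Tumor, a difference of -0.46 ± 0.16 (SE, adjusted p from limma 0.0753). The dimmest (1374404_at) measured 9.34, 9.73 and 9.13 in A16 and 8.25, 8.63 and 8.12 in Tumor, and fell by 1.08 on the log2 scale (SE 0.21, adjusted p from limma 0.00993). The platform annotation ties these 2 probe sets to the same expressed sequence. The middle one (1369788_s_at), tied to a RefSeq transcript of Jun, went the other way. It measured 10.70, 10.82 and 10.92 in A16 and 11.82, 11.79 and 11.79 in Tumor, a difference of 0.98 ± 0.11 (SE, 95% interval 0.72 to 1.24, adjusted p from limma 0.000934). Its 1.98-fold change missed the fold minimum, and under PLIER it was 2.06-fold and called higher. With RMA it was also called higher when technical replicate 2 was left out (1.04) or averaged with replicate 2 (1.02). For the dimmest probe set the difference was -0.83 when A16 replicate 2 was left out and -0.86 when Tumor replicate 1 was, and neither was called. Since 2 probe sets were lower and 1 higher, with separate arrays in each of them, no direction is given here for the Jun gene.

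Jund encodes JunD, the JUN protein least dependent on stimulation. Its brightest probe set (1393138_at) measured 10.42, 10.99 and 10.50 in A16 and 10.22, 9.63 and 10.56 in Tumor. The groups overlapped, since the Tumor technical replicate lay above 2 of the A16 arrays. The difference was -0.71 ± 0.28 (SE, 95% interval -1.39 to -0.04, adjusted p from limma 0.104), and it was -1.09 and called without Tumor replicate 1. The second probe set (1387762_s_at) measured 5.82, 5.70 and 5.79 in A16 and 5.54, 5.42 and 5.55 in Tumor, a difference of -0.27 ± 0.12 (SE) that was not called. The third (1375768_at) measured 5.37, 5.16 and 5.43 in A16 and 5.25, 5.26 and 5.05 in Tumor, a difference of -0.08 ± 0.13 (SE). Its sign was not stable, and with PLIER the difference was 0.76. For Jund, then, the arrays set no direction that every probe set and both summaries share.

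Atf3, a stress-induced bZIP factor that often represses its targets, measured 8.59, 8.55 and 8.45 in A16 and 8.69, 8.24 and 8.39 in Tumor. The groups overlapped, with a difference of -0.14 ± 0.14 (SE, 95% interval -0.47 to 0.18, adjusted p from limma 0.488), and the interval holds no 2-fold change in either direction. Egr1 measured 10.04, 10.46 and 10.39 in A16 and 10.79, 10.64 and 10.71 in Tumor. The Tumor arrays were all higher, but the difference of 0.36 ± 0.13 (SE, 95% interval 0.04 to 0.67) was not called (adjusted p from limma 0.0845), and under PLIER it was 0.17 with overlapping arrays. Ets1 measured 10.03, 9.96 and 10.07 in A16 and 10.56, 10.45 and 10.56 in Tumor, with no overlap. Its difference of 0.50 ± 0.11 (SE, 95% interval 0.22 to 0.77) passed the adjusted p from limma at 0.0172 but was only 1.41-fold, and 1.90-fold under PLIER. Without Tumor replicate 1 its adjusted p from limma was 0.134, and without Tumor replicate 2 it was 0.0693.

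**Figure D3:**
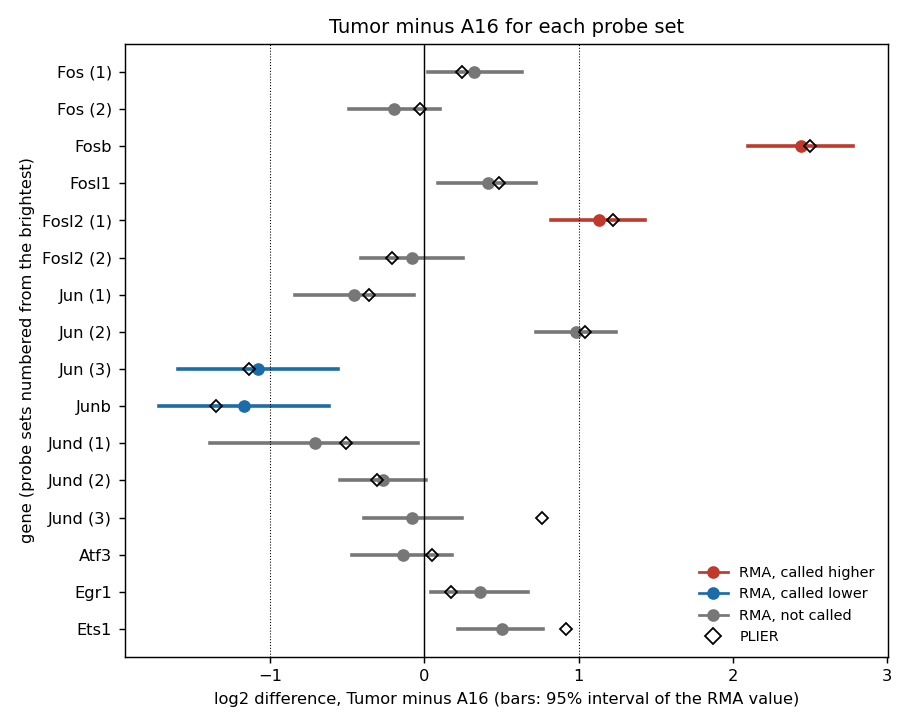
Log2 difference, Tumor minus A16, of each member probe set with its 95% interval (RMA, filled circles) and the PLIER value (open diamonds), with dotted lines at 2-fold. Fosb and the brighter Fosl2 probe set lie to the right, Junb and the dimmest Jun probe set to the left, and PLIER has the same sign as RMA in 14 of 16 probe sets.

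The stromelysins rose far more than any of these factors. Mmp3 (stromelysin-1) measured 5.61, 4.96 and 5.71 in A16 and 12.17, 12.13 and 12.09 in Tumor, a 113-fold rise (log2 difference 6.82 ± 0.22 SE, adjusted p from limma 1.43e-05), and Mmp10 (stromelysin-2) rose 133-fold (7.05 ± 0.11 SE, adjusted p from limma 7.59e-06) from 5.44 to 5.63 in A16 to 12.54 to 12.61 in Tumor. Bacterial probe sets of the array that no spike matches measured 4.21 to 4.30, so the A16 levels of both genes were low and their folds are uncertain. A level near the floor may understate a fold. The published qPCR of Mmp3, however, gave a rise in Tumor cells much smaller than the published array value. The largest member difference, that of Fosb, was 5.42-fold. The 6 arrays form 2 separate groups for the stromelysins and for the called members, so no correlation across arrays is given.

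**Figure D4:**
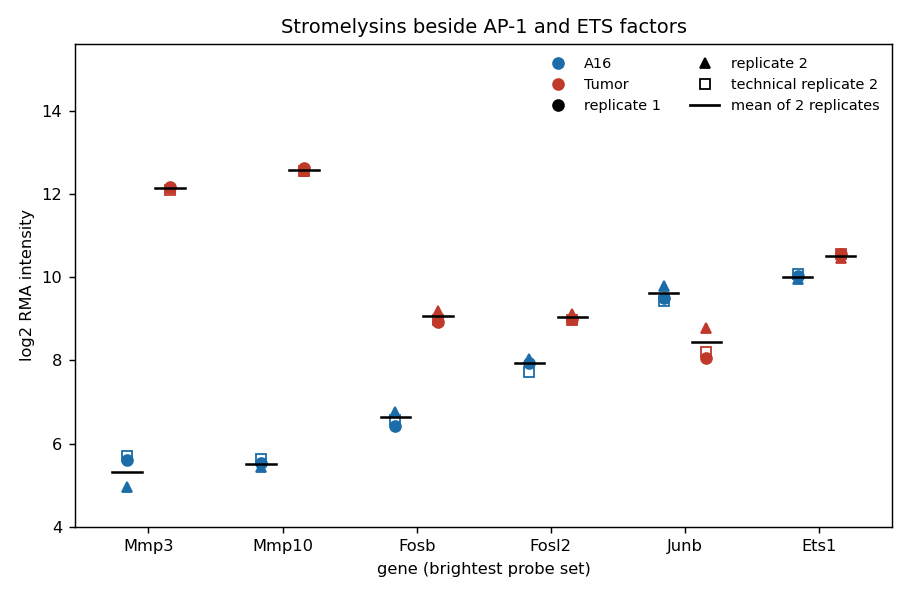
Log2 RMA intensity of Mmp3, Mmp10 and the brightest probe sets of Fosb, Fosl2, Junb and Ets1 on the 3 A16 arrays (blue) and the 3 Tumor arrays (red), with bars at the mean of the 2 replicates. The stromelysins lie between 4.96 and 5.71 in A16 and above 12 in Tumor, a wider gap than in any of the 4 factors.

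Other genes of the same families and pathways were taken from 10 lists, and each gene was represented by its brightest probe set. By the same rule 5.45% of all genes were called higher and 5.44% lower. Where that probe set was not called another was in some genes, 3 each among the other bZIP, ETS and immediate early genes. Among other bZIP partners and relatives of AP-1, 25 of 28 genes were measured, of which 1 rose and 5 fell, with a median log2 difference of -0.24 beside 0.03 over all genes. The 1 that rose was Crem, a cyclic AMP responsive factor, by 1.34 ± 0.16 (SE), and the mean over its probe sets was 0.86, under 2-fold. Its other probe sets at 1.24 and 1.17 were called higher as well, and those at 0.65, 0.54 and 0.2 were not called. Those that fell were Atf5, a stress-related factor, at -2.53 ± 0.52 (SE), Creb3l1, a membrane-bound factor of secretory cells, at -1.85 ± 0.16 (SE), Jdp2, a repressor that pairs with JUN, at -1.20 ± 0.29 (SE), Atf2, a JUN partner, at -1.07 ± 0.17 (SE), and Mafk, a small MAF protein, at -1.03 ± 0.13 (SE). The A16 arrays of Atf5 were uneven, at 10.20, 12.05 and 10.23. The calls of Atf2, Atf5, Jdp2 and Mafk were each lost in at least 1 alternative. Those of Atf5, Jdp2 and Mafk were lost without Tumor replicate 1, where the differences were -2.43, -0.94 and -0.91.

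Among other ETS factors, 22 of 25 were measured, and 20 were not called. Etv3, a repressor, rose by 1.11 ± 0.18 (SE), while Etv5, an activator induced by ERK signalling, had a difference of -1.67 ± 0.27 (SE) and was called lower. Each of these genes had another probe set that was not called, at 0.12 for Etv3 and 0.53 for Etv5, the latter of opposite sign, and the mean over the probe sets was under 2-fold for both (0.61 and -0.57). The call of Etv3 was lost without A16 replicate 1 (0.98) or Tumor replicate 1 (0.90). Of the other EGR factors, Egr2 rose 4.68-fold, from 5.48, 5.75 and 5.93 in A16 to 7.95, 7.82 and 8.22 in Tumor, with no overlap. The A16 level was low, so the fold may be understated, and PLIER gave 11.4-fold. The rise was seen with 1 of 2 Egr2 probe sets, and the other was not called. Egr3 differed by -0.10 ± 0.18 (SE) and Egr4 by -0.06 ± 0.11 (SE), neither called. Wt1, a zinc finger factor that binds EGR-like elements, fell by 1.98 on the log2 scale (SE 0.14), with a second probe set at -0.49 that was not called. The corepressors of the EGR proteins differed by -0.41 ± 0.12 (SE) for Nab1 and 0.30 ± 0.13 (SE) for Nab2, neither called.

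Other immediate early genes moved in both directions, with 6 of the 33 measured higher, 5 lower and 22 not called, and a median of 0.35. Beside these, 5.45% of all genes were called higher and 5.44% lower, with a median of 0.03. Klf4, a zinc finger factor, rose by 2.37 ± 0.17 (SE), Cited2, a coactivator-binding protein, by 1.45 ± 0.12 (SE; 0.94 as the mean of its probe sets) and Sgk1, a serum-induced kinase, by 1.39 ± 0.12 (SE). Ccn1, a secreted matricellular protein, was lower by -1.99 ± 0.23 (SE) and Ier2, an early response protein, by -1.35 ± 0.19 (SE). None of the 6 measured genes for serum response factor and its cofactors was called by limma with its brightest probe set (median 0.05), and 2 were higher and 1 lower by an unadjusted p under 0.05 at any fold. The stricter adjusted p under 0.05 was passed at any fold by 31.8% of all probe sets. Dimmer probe sets of 3 of them were called, lower for Srf (-1.99) and Elk1 (-1.16) and higher for Elk3 (1.33), and these genes were named after their values were seen.

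The kinases upstream and their inhibitors form 3 further lists, to be read beside the 5.45% of all genes called higher and 5.44% lower. Of 11 measured ERK pathway kinases 1 was called, Mknk2, a kinase of the translation factor eIF4E, at -1.07 ± 0.22 (SE), which was lost in several alternatives, PLIER among them. Of 15 measured JNK and p38 pathway kinases, Mapk12, which encodes p38 gamma, rose 27.6-fold, from 5.54, 5.55 and 5.68 in A16 to 10.40, 10.37 and 10.34 in Tumor. Its A16 level was low as well, so the fold may be understated, and PLIER gave 45.8-fold. Map3k14, the NF-kappaB-inducing kinase, was lower at -1.14 ± 0.13 (SE), and the other 13 were not called. Of 15 measured MAP kinase phosphatases and Sprouty inhibitors, 3 rose and none was called lower by limma with its brightest probe set. By an unadjusted p under 0.05 at any fold, 7 were higher and 2 lower, and 31.8% of all probe sets passed even the adjusted p. A dimmer probe set of Dusp1 was called lower, at -1.53 against 0.34 for the brightest. The 3 were Dusp6, a phosphatase of ERK, which rose 8.08-fold (3.01 ± 0.12 SE), Dusp9, another MAP kinase phosphatase (2.35 ± 0.13 SE) and Dusp5, an ERK phosphatase of the nucleus (2.21 ± 0.14 SE). Dusp6 had 2 further probe sets, at 0.75 and 0.21, that were not called.

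Of 30 genes known as AP-1 targets 28 were measured, of which 9 were called higher, 5 lower and 14 not called, with a median of 0.19. Over all genes 5.45% were called higher and 5.44% lower. Among the 9 was Gja1 (1.30), named after its values were seen. Another of its probe sets was called lower, at -1.74, and the mean over its probe sets was -0.13. The list was written with the stromelysin rise known and holds both stromelysins, so its count is no independent evidence of direction. The largest differences after the stromelysins were those of Spp1, the secreted phosphoprotein osteopontin, at 5.79 ± 0.13 (SE), of Areg, an EGF receptor ligand, at 3.63 ± 0.15 (SE), of Lox, which crosslinks collagen, at -3.53 ± 0.12 (SE), and of Mmp13, a collagenase, at 2.31 ± 0.12 (SE). The Spp1 rise was 55.1-fold with RMA and 145-fold with PLIER. Of 13 measured genes known as EGR1 targets, 2 were higher and 4 lower. These were Flt1, a VEGF receptor (2.32 ± 0.11 SE, with 2 further probe sets not called and a mean of 0.82), F3, tissue factor (1.30 ± 0.13 SE), Ccnd2, cyclin D2 (-4.46 ± 0.17 SE), Igf2, a growth factor (-1.85 ± 0.16 SE, with 3 further probe sets not called and a mean of -0.51), Pdgfa, a growth factor for fibroblasts (-1.40 ± 0.27 SE), and Fn1, fibronectin (-1.27 ± 0.13 SE). The rise of Flt1 was 5.01-fold with RMA and 9.45-fold with PLIER. The call of Pdgfa was lost without A16 replicate 2 and without Tumor replicate 1.

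**Figure D5:**
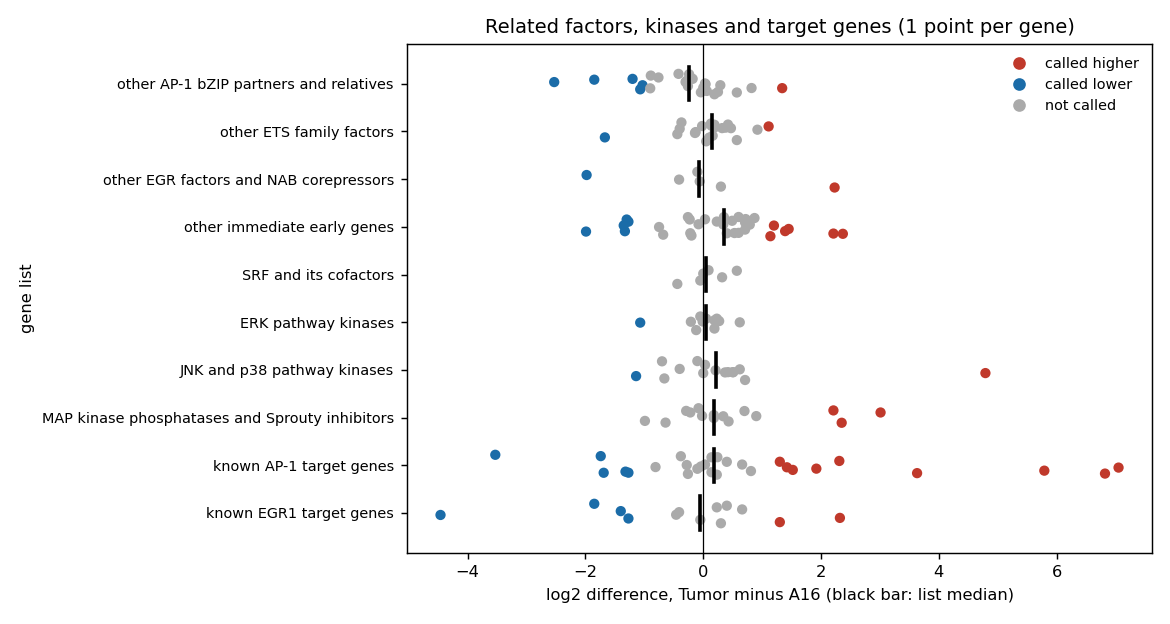
Log2 difference, Tumor minus A16, of each measured gene of 10 lists related to the AP-1 and early growth response factors, coloured by call, with a black bar at each list median. The medians lie between -0.24 and 0.35, and the widest range is that of the known AP-1 target genes, from -3.53 to 7.05.

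Genes were then sorted by the letters of their promoters, as a description with no test. Of the 11700 genes with both a probe set and a promoter entry, 5.48% were called higher and 5.2% lower, with a median log2 difference of 0.03. Among the 701 of these whose promoter held an AP-1 element, 8.7% were higher and 6.42% lower, with a median of 0.05. Among the 1148 with an EGR element, 8.1% were higher and 5.31% lower, with a median of 0.07. Among the 7347 with an ETS core, 5.34% were higher and 5.24% lower, and among the 474 with both an AP-1 element and an ETS core, 8.65% were higher and 7.38% lower. Genes with a CRE numbered 343, of which 4.37% were higher and 5.54% lower, and genes with a CArG box 173, of which 6.36% were higher and 4.62% lower.

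Markers of fibroblasts, the cell type that the paper gives for F111, were read beside markers of other cell types. Of 12 fibroblast markers 3 were lower in Tumor (Col1a1, Col1a2 and Thy1), and their summed log2 level was 117.3 to 118.7 on the A16 arrays and at most 111.2 on the Tumor arrays. Vim measured 14.17 to 14.36 over all arrays, whereas Dcn measured 4.58 to 5.38, low beside the 4.21 to 4.30 of the probe sets with no spike. Of 12 macrophage markers, Csf1r (mean 5.46 in A16 and 8.59 in Tumor) and Cd68 (6.01 and 7.09) were higher, and the other 10 were not called. The sum over all 12, Csf1r and Cd68 included, was 68.0 to 69.9 in A16 and 74.1 to 74.8 in Tumor. The defining markers Ptprc and Adgre1 stayed between 3.88 and 5.42 on every array. None of the 37 endothelial, lymphocyte, keratinocyte, adipocyte and skeletal muscle markers was called by limma (by an unadjusted p under 0.05 at any fold, 7 were higher and 5 lower). Of all probe sets, 31.8% passed even the stricter adjusted p under 0.05 at any fold. The probes of the array are for rat, and how far RNA of mouse host cells would register on them was not tested. These markers therefore cannot show whether host cells were present. In these bulk samples fewer cells of a type and less RNA per cell cannot be told apart. The controls of the labelling differed with the group as well. Poly-A spikes measured 7.64 to 8.14 in A16 and 4.75 to 4.92 in Tumor, and the log2 difference of the 3′ over the 5′ beta-actin probe set was 0.64 to 0.71 in A16 and 2.25 to 2.37 in Tumor. The gap was smaller for the other genes with such probe sets. GAPDH gave -0.05 to 0.0 in A16 and 0.25 to 0.33 in Tumor, and hexokinase 0.84 to 1.39 in A16 and 1.83 to 2.3 in Tumor. The part of these differences, and of those in the markers, in the values of the members was not tested, and labelling and group cannot be told apart.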

How the data were processed

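RNA of F111 A16 and Tumor cells was hybridised to Affymetrix rat expression arrays. For each of 6 arrays the authors deposited linear intensity values summarised by RMA and again by PLIER, and log2 was taken here. Versions of these algorithms, which the submitters' processing notes name, were not given in the sources read. The lowest PLIER value was 16, so an offset appeared to be included. RMA medians were 98 to 100.1, and the number of arrays limits the precision. Technical replicate 2, with no biological number in the labels, was averaged with replicate 1. Tumor and A16 were compared with limma 3.58.1 in R 4.3.3 (moderated two-sided test from lmFit and eBayes, with p adjusted by Benjamini-Hochberg), after the fit had been tested on simulated data. Of 31099 probe sets, 57 array controls were left out, and 20826 had 1 gene symbol. The brightest probe set, by mean log2 RMA value, stood for a gene. The text names all members, Mmp3 and Mmp10, up to 6 called genes of each list by size of change, all other EGR and NAB genes, and cell type markers. The members and lists were chosen with earlier results of these data known. The alternatives tried were PLIER, its offset, the use of technical replicate 2, each replicate left out, the replicate block, normalization, a filter on dim probe sets, the variance trend, the methods' t-test, the fold minimum and the mean over the probe sets of a gene.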

Additional observations from a re-analysis of the deposited data

How the results depend on the processing

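Fosb and the brighter Fosl2 probe set kept their direction under all alternatives (differences of 2.32 to 2.71 and 0.52 to 1.30) and, apart from the adjusted t-test and, for Fosl2, the mean over its probe sets, their calls. Leaving out 1 replicate gave 1 to 2 member probe sets called lower and 2 called higher: without A16 replicate 2 the Jun call was lost, and without Tumor replicate 1 those of Jun and Junb were lost and Jund (1393138_at) was called. The methods' t-test at its own threshold called 2 members higher and 0 lower. After Benjamini-Hochberg it called 0 members in either direction, 4 probe sets of the whole array higher and 8 lower, against 1709 and 1985 with limma. PLIER with an offset of 1 called 4 members and 3113 probe sets in all higher. With no fold minimum, 4 members and 5047 probe sets in all were higher and 4832 lower. Among the members, signs turned only in differences that were not called with RMA. Jund (1375768_at) was 0.76 under PLIER and, with its offset of 1, 1.27 and called higher (adjusted p from limma 0.0249), and -0.20 to 0.04 with 1 replicate left out. Atf3 was 0.05 under both PLIER settings and -0.29 to 0.00 with 1 replicate left out. The second Fosl2 probe set was 0.01 after quantile normalization and -0.22 to 0.06 with 1 replicate left out. The cause was not tested. The labels do not say that a replicate number marks a shared batch, and replicate 1 minus replicate 2 correlated at 0.12 between the groups. The replicate block gave 1715 probe sets higher and 2035 lower, with 2 members each way, and changed no member's call. Of 45 called genes in the related lists, 15 lost their call under at least 1 alternative other than the t-test, the mean over probe sets included. Among these was Gja1, whose sign turned from 1.3 to -0.13 with that mean. Differences under 2-fold were not called by definition, and probe sets near the floor of the array have poorly measured differences.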
